A study of Danio rerio with 18 samples.

Results

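The complement and coagulation genes of zebrafish larvae were taken by gene symbol from the table of estimated counts. A gene was a member when its symbol began with the name of a complement component (c1q, c1r, c1s, c2 to c9), of a complement factor or lectin-pathway protein (cfb, cfd, cfh, cfi, masp, mbl), of a fibrinogen chain (fga, fgb, fgg), with serpin, plg or kng1, or when it was exactly f2, f3, f5, f7, f8, f9, f10 or f13. The letters matched 131 symbols, of which 32 were left out because they are open reading frame names (23), C2-domain proteins (6) or astacin proteases (3). This left 99 members of 32520 gene IDs, and 92 of them had enough counts to be tested among 23223 genes. The 7 that were not tested were c1qb, c1qc, c1s.2, c3a.4, c3a.5, C3AR1 and c5ar1. By role, 40 members were complement components, receptors and regulators, 20 belonged to coagulation and fibrinolysis, 16 were other serpins, 17 were C1q-domain relatives outside the C1 complex, and 6 shared only the letters of a symbol.

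RNA-Seq was performed on 18 pools of whole larvae at 120 hours post fertilization, 6 per group. The first group was the homozygous akr1a1a knockout (akr1a1a-/-, KO), the second was akr1a1a+/+ larvae treated with acrolein (ACR) from 24 hours post fertilization until collection, and the third was untreated akr1a1a+/+ larvae (WT). Akr1a1a is an aldo-keto reductase that detoxifies aldehydes such as ACR, and the groups address what loss of the enzyme and added ACR do to the transcriptome. The study used the Tg(fli1:EGFP) reporter line, and the labels of all groups give E3 medium with PTU, which suppresses pigment. The knockout is 1 CRISPR/Cas9 allele in exon 2 of the gene, kept as 1 line, so line and genotype cannot be told apart. The study describes the replicates as clutches, each pooled from many larvae, and p values therefore measure the spread between these pools.

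Complement is a cascade of plasma proteases that is started by antibody (classical route), by sugar-binding lectins (lectin route) or by spontaneous turnover of C3 (alternative route), and all routes meet in C3 and end in the C5 to C9 pore. Coagulation is a second protease cascade, in which thrombin cuts fibrinogen into fibrin, plasmin dissolves the clot, and serpins act as suicide inhibitors of the proteases. Most of these proteins are made in hepatocytes and secreted, and teleosts carry several copies of many of the genes, including c3, factor H and F7.

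CPM are a gene's counts relative to the scaled total of its library. Total counts lay between 19878464 and 20463404 per library, and a level of 3 counts, about 0.148 CPM, was taken as the smallest one detected. This limit covers counting error only. Transcripts of akr1a1a had 0.306 to 0.741 CPM in KO, 2.76 to 3.75 CPM in ACR and 2.32 to 3.41 CPM in WT libraries, so the KO libraries lay below all others. The library names hold the tags L2 and L3, read here as the sequencing lane. All KO libraries carried L3 and all WT libraries L2, while ACR replicates 1 to 3 carried L2 and 4 to 6 carried L3. Genotype and lane therefore cannot be told apart in the comparison of KO with WT.

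Levels between genes were compared in TPM, which relate counts to transcript length and sum to the same total in every library. The highest members were the alpha-1-antitrypsin genes serpina1l and serpina1, with 320 ± 47.0 TPM and 264 ± 43.2 TPM in KO, 368 ± 60.1 TPM and 228 ± 26.1 TPM in ACR, and 340 ± 56.2 TPM and 228 ± 32.5 TPM in WT (SD, n = 6 each). The pore component c9 followed, with 150 ± 25.9 TPM in KO, 175 ± 17.1 TPM in ACR and 180 ± 13.5 TPM in WT. The transcripts of the 3 fibrinogen chains stood close to each other in every group. In KO larvae FGB, fga and FGG averaged 103 ± 23.3, 91.8 ± 20.2 and 84.8 ± 18 TPM, and in WT larvae they averaged 119 ± 11, 103 ± 10.4 and 105 ± 13.5 TPM. The 3 chains of C8 were likewise level, with c8a, c8b and c8g at 14.5 ± 2.67, 16.4 ± 2.07 and 13.2 ± 1.99 TPM in KO and at 16.7 ± 1.27, 15 ± 1.12 and 15.4 ± 2.25 TPM in WT. By contrast, c9, of which many copies join 1 pore, made up 68.2 ± 1.32% of the TPM of the 9 terminal pathway genes in KO, 69.1 ± 2.18% in ACR and 70.4 ± 1.92% in WT.

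Among the 8 genes for C3, the central component, c3a.1 dominated, with 50.5 ± 3.04% of their summed TPM in KO, 52.7 ± 2.02% in ACR and 52.3 ± 1.78% in WT. The genes c3a.2, c3a.3, c3a.6, c3b.1 and c3b.2 averaged between 7.57 and 15.3 TPM in KO and between 7.53 and 18 TPM in WT, whereas c3a.4 and c3a.5 averaged 0.134 and 0.0378 TPM in KO and 0.104 and 0.0339 TPM in WT. The genes of the C1 complex were low throughout. C1r averaged 0.661 ± 0.281 TPM in KO and 1.15 ± 0.102 TPM in WT, and the receptors C3AR1 and c5ar1, which sense the small fragments of C3 and C5 on leukocytes, averaged 0.244 ± 0.0741 and 0.519 ± 0.126 TPM in KO and 0.300 ± 0.226 and 0.336 ± 0.151 TPM in WT. Copies of 1 family can share reads, so the split between the c3a genes, between the factor H-like genes, between the 3 genes named F7 and between the serpinb1-like genes is uncertain.

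Between KO and WT, 16 of the 92 tested members passed the test, 9 higher and 7 lower in KO (edgeR quasi-likelihood test, Benjamini-Hochberg adjusted p under 0.05 over all genes). This was 17.4% of the members, and 16.2% of all genes tested passed, 8.19% higher and 7.96% lower, so the share of members was near that of all genes. On the scale of log2(TPM + 1), tested with limma, 22 members passed, with a split of 8 higher and 14 lower, against 15.9% of all genes. The shares of all genes by direction were not counted on that scale, so this split has no background. At an unadjusted p under 0.05 there were 35 members, against 29.8% of all genes. The 6 KO values and the 6 WT values did not overlap for 10 members, or 10.9%, against 7.45% of all genes, with 6 members above (3.8% of all genes) and 4 below (3.65%). The members that passed were unevenly placed among the roles. Of 33 tested complement components and regulators, 0 were higher and 3 lower, and 9 were at an unadjusted p under 0.05. The 3 lower ones were 9.09% of the complement members, near the 7.96% of all genes that were lower. Of 20 coagulation and fibrinolysis members 1 was higher and 2 were lower, and of 24 serpins of any role 6 were higher and 3 lower. The called share of neither cascade exceeded the 16.2% of all genes, while that of the serpins was 37.5%. The median log2 fold change was -0.071 over the complement members, -0.082 over coagulation and fibrinolysis and 0.023 over the serpins, against -0.001 over all genes.

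**Figure D1:**
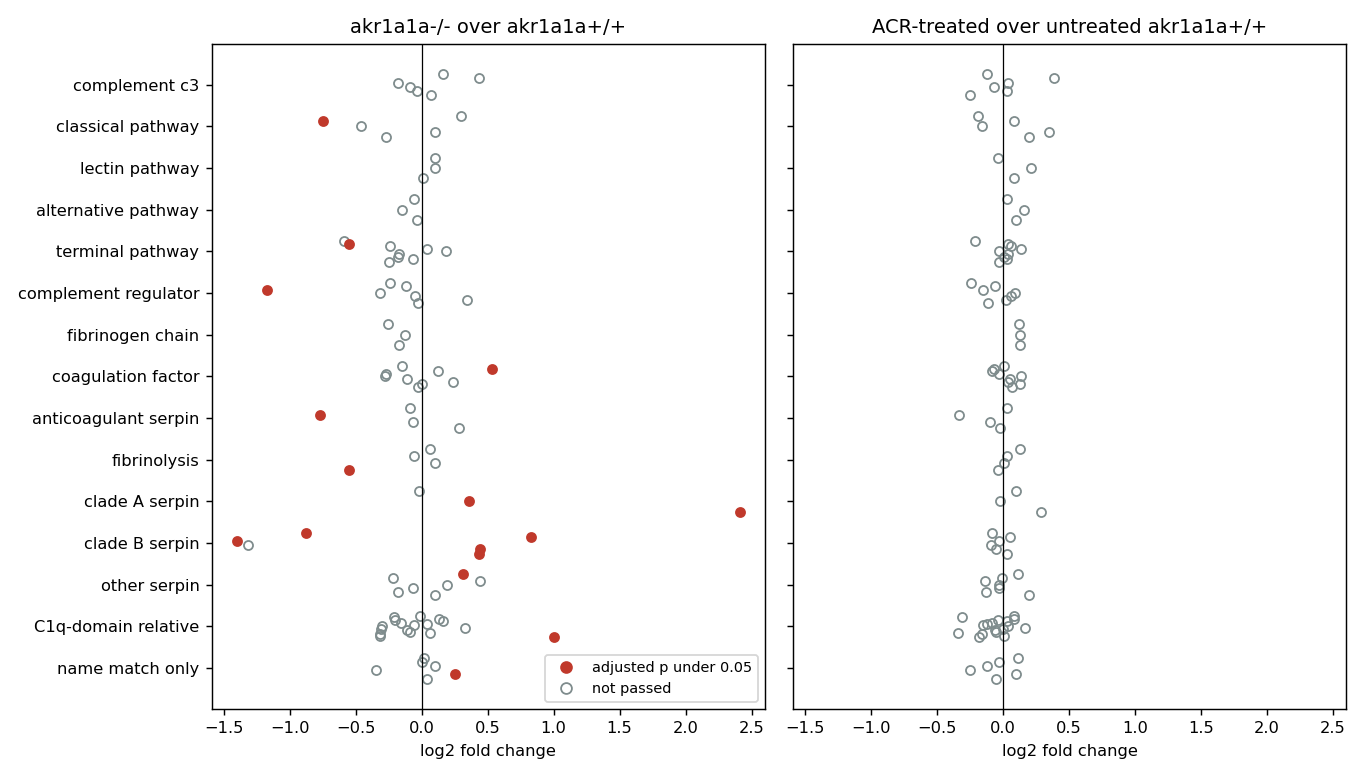
Log2 fold change of the 92 tested members by role, akr1a1a-/- over akr1a1a+/+ larvae on the left and ACR-treated over untreated akr1a1a+/+ larvae on the right. Each circle is 1 gene, and filled circles had an adjusted p under 0.05: 16 on the left, among them 5 of the 6 clade B serpins, and 0 on the right.

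In the complement cascade the 3 members that passed were lower in KO larvae: c1r, c7b and cfhl3. C1r (ENSDARG00000100248), the protease that starts the classical route, had between 0.302 and 1.19 CPM (median 0.884) in KO, 1.21 and 1.88 CPM (1.37) in ACR and 1.23 and 1.64 CPM (1.35) in WT. The KO values lay below all others, at 6 to 24 counts, and the log2 fold change of KO over WT was -0.75 ± 0.23 (SE, adjusted p = 0.0300). The call for c1r was lost without KO replicate 2 (adjusted p = 0.0700), KO replicate 3 (0.0564) or WT replicate 6 (0.0654) and with only the KO and WT groups in the fit (0.0531). The partner protease c1s.1 had 3.65 to 4.38 CPM (median 3.92) in KO and 2.59 to 4.03 CPM (3.37) in WT, with a log2 fold change of 0.30 ± 0.13 that did not pass (adjusted p = 0.135).

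In the terminal pathway, c7b (ENSDARG00000057121), which anchors the growing pore in the membrane, had 2.42 to 3.8 CPM (median 3.06) in KO, 3.65 to 5.77 CPM (4.74) in ACR and 3.24 to 5.68 CPM (4.66) in WT. Of the WT libraries only replicate 6, at 3.24 CPM, lay within the KO range, and the log2 fold change was -0.55 ± 0.14 (adjusted p = 0.0106). Its copy c7a had 6.99 to 10.0 CPM (median 8.37) in KO and 6.20 to 10.2 CPM (8.42) in WT, a log2 fold change of 0.04 ± 0.17 (adjusted p = 0.899). For c9, KO libraries had 177 to 267 CPM (median 219) and WT libraries 240 to 295 CPM (259), with 2 KO libraries inside the WT range. Its log2 fold change of -0.25 ± 0.09 did not pass with all libraries (adjusted p = 0.0715) and passed without KO replicate 3 (0.0239) and on the log2(TPM + 1) scale (0.0483). The remaining terminal members c5, c6.1, c6.2, c8a, c8b and c8g had log2 fold changes between -0.59 and 0.18, none past the threshold.

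Among the regulators, cfhl3 (ENSDARG00000104205), a copy of the factor H family that restrains C3 turnover, had 0.206 to 0.741 CPM (median 0.651) in KO, 0.531 to 1.65 CPM (1.11) in ACR and 0.839 to 1.47 CPM (1.37) in WT. These are 4 to 15 counts in KO libraries, all below the WT libraries, and the log2 fold change was -1.17 ± 0.28 (adjusted p = 0.00634). The most abundant member of that family, cfhl4, had 79.9 to 122 CPM (median 94.2) in KO and 90.1 to 120 CPM (99.3) in WT, a log2 fold change of -0.05 ± 0.09 (adjusted p = 0.748). C3 itself did not pass in any copy: c3a.1 had 206 to 319 CPM (median 216) in KO and 232 to 268 CPM (247) in WT, a log2 fold change of -0.04 ± 0.09 (adjusted p = 0.787). Factor D, cfd, the protease of the alternative route, had 38.8 to 57.5 CPM (median 52.6) in KO and 47.8 to 55.3 CPM (52.5) in WT, and its log2 fold change was -0.04 ± 0.09 (adjusted p = 0.793). Factor H itself, cfh, named after its values were seen, had 32.1 to 55.1 CPM (median 39.8) in KO and 27.0 to 44.7 CPM (31.1) in WT, a log2 fold change of 0.34 ± 0.16 that did not pass (adjusted p = 0.164). None of the 3 lectin pathway members passed, with log2 fold changes between 0.01 and 0.10.

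In coagulation and fibrinolysis, plasminogen and serpina10b were lower and 1 of the F7 genes was higher in KO larvae. PLG (ENSDARG00000023111), the precursor of plasmin, had 134 to 158 CPM (median 140) in KO, 137 to 264 CPM (192) in ACR and 159 to 280 CPM (189) in WT. The KO libraries spanned a narrow range below every WT library, the highest of them just under the lowest WT value, and the log2 fold change was -0.55 ± 0.15 (adjusted p = 0.0143). Its inhibitors serpinf2a and serpinf2b, the antiplasmins, had log2 fold changes of 0.06 ± 0.07 and -0.06 ± 0.09, neither past the threshold (adjusted p = 0.610 and 0.726).

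The F7 gene ENSDARG00000100782, a copy of the factor that starts clotting with tissue factor, had 10.6 to 18.6 CPM (median 13.9) in KO, 7.04 to 11.4 CPM (9.01) in ACR and 6.47 to 12.5 CPM (10.4) in WT. The groups overlapped, with 4 KO libraries above every WT library, and the log2 fold change was 0.53 ± 0.15 (adjusted p = 0.0193). Without KO replicate 6, the highest, it was 0.44 (adjusted p = 0.0528). The other F7 genes did not pass, at 0.24 ± 0.10 for ENSDARG00000034862 (adjusted p = 0.109) and -0.27 ± 0.16 for ENSDARG00000075827 (adjusted p = 0.282).

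The anticoagulant serpina10b (ENSDARG00000036968), which in mammals inhibits factor Xa together with protein Z, had 1.26 to 5.08 CPM (median 3.56) in KO, 3.23 to 6.51 CPM (4.45) in ACR and 4.61 to 6.66 CPM (5.52) in WT. The lowest values were those of KO replicates 4 and 2, at 1.26 and 2.07 CPM, and the log2 fold change was -0.77 ± 0.24 (adjusted p = 0.0319). The call was lost when any of KO replicates 2, 4 and 6 or WT replicates 4, 5 and 6 was left out, with adjusted p between 0.0508 and 0.0718. Its copy serpina10a had 77.1 to 116 CPM (median 83.0) in KO and 51.4 to 110 CPM (64.9) in WT, and did not pass (0.28 ± 0.21, adjusted p = 0.410). Antithrombin, SERPINC1, had 111 to 140 CPM (median 125) in KO and 121 to 148 CPM (132) in WT, and its log2 fold change was -0.09 ± 0.07 (adjusted p = 0.437). Prothrombin, f2, had 106 to 135 CPM (median 122) in KO and 112 to 153 CPM (126) in WT, and its log2 fold change was -0.11 ± 0.09 (adjusted p = 0.474).

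The 3 fibrinogen chains had log2 fold changes of -0.17 ± 0.12 (FGB), -0.13 ± 0.12 (fga) and -0.26 ± 0.12 (FGG), and none passed (adjusted p = 0.330, 0.496 and 0.148). Without KO replicate 2, the highest KO library for all 3 chains, FGG passed at -0.35 (adjusted p = 0.0479). Their summed TPM was 207 to 381 (median 278) in KO, 292 to 434 (357) in ACR and 281 to 377 (321) in WT. KO replicates 4, 5 and 6, at 260, 232 and 207 TPM, lay below every WT library, and KO replicate 2, at 381 TPM, lay above them all. The same 3 KO libraries were also the lowest for complement as a whole, at 594, 586 and 600 TPM against 658 to 771 TPM in WT, and for coagulation and fibrinolysis, at 749, 718 and 709 TPM against 812 to 1040 TPM in WT. The summed TPM of 27 hepatocyte markers, of which 0 were members, was 13000 to 17200 (median 15000) in KO, 12800 to 17500 (15700) in ACR and 13800 to 16900 (15700) in WT. Of these markers 3 were higher and 6 lower in KO, or 33.3% against 16.2% of all genes, with a median log2 fold change of -0.181, and their part in the members' values was not tested. The summed marker TPM of KO and WT overlapped. Of the same KO libraries, replicates 4 and 6, at 13000 and 13400 TPM, lay below every WT library for these markers too. KO replicate 5, at 14700 TPM, lay within the WT range, and KO replicate 3, at 17200 TPM, lay above it. In whole larvae the number of hepatocytes and the RNA per hepatocyte cannot be told apart.

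**Figure D2:**
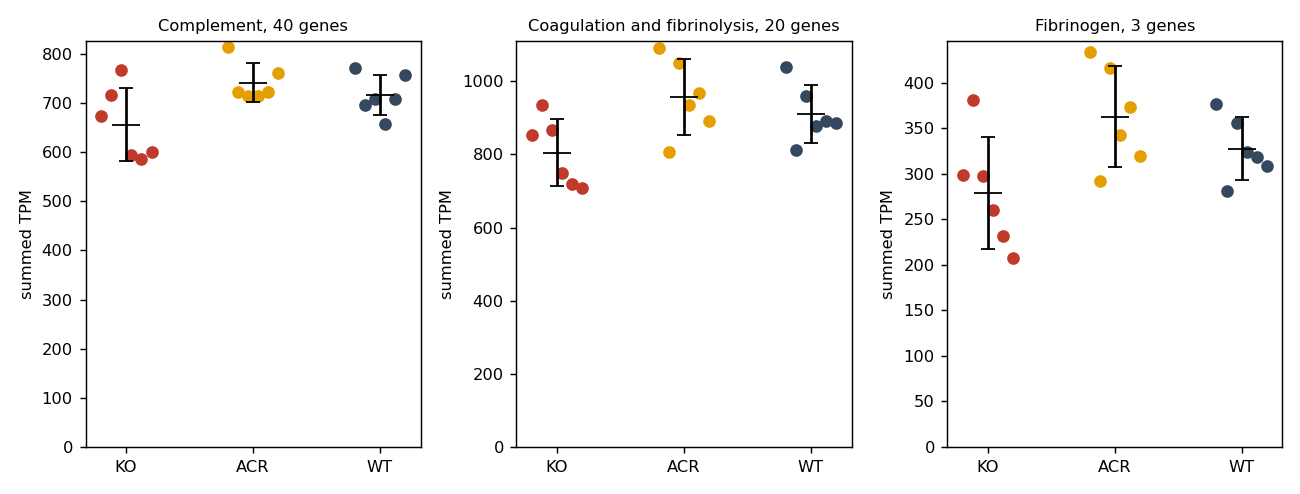
Summed TPM per library of the 40 complement members, the 20 coagulation and fibrinolysis members and the 3 fibrinogen chains in akr1a1a-/- (KO), ACR-treated akr1a1a+/+ (ACR) and untreated akr1a1a+/+ (WT) larvae. Points are libraries, and bars show the mean and SD (n = 6). In each panel 3 KO libraries lie below all WT libraries while the others lie among or above them.

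The clade B serpins, which mostly stay inside the cell, held the largest share of calls, 5 of 6 members. This was 83.3%, against 16.2% of all genes, with 3 higher and 2 lower in KO. The copies SERPINB1 (ENSDARG00000055416) and serpinb1l3 (ENSDARG00000014556) belong to the family of the human neutrophil elastase inhibitor. SERPINB1 had 74.4 to 96.3 CPM (median 86.1) in KO, 54.8 to 68.2 CPM (63.0) in ACR and 56.3 to 72.1 CPM (64.9) in WT. Every KO library lay above every other library, and the log2 fold change was 0.44 ± 0.07 (adjusted p = 0.000412). Serpinb1l3 had 71.9 to 104 CPM (median 79.4) in KO, 56.5 to 69.1 CPM (65.0) in ACR and 53.5 to 70.9 CPM (62.2) in WT, again with no overlap, and a log2 fold change of 0.43 ± 0.08 (adjusted p = 0.00132). SERPINB8 (ENSDARG00000095830), whose human counterpart inhibits furin, was lower in level, with 1.66 to 2.92 CPM (median 2.07) in KO, 0.888 to 1.93 CPM (1.24) in ACR and 0.797 to 1.37 CPM (1.3) in WT. Its KO values did not overlap those of WT, and the log2 fold change was 0.83 ± 0.19 (adjusted p = 0.00470).

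In the same clade serpinb14 and serpinb1l4 were lower in KO larvae, and both varied widely between KO clutches. Serpinb14 (ENSDARG00000091801), which shares its symbol with chicken ovalbumin, had 7.81, 7.92, 0.987, 13.9, 0.926 and 19.5 CPM in KO replicates 1 to 6, 19.3 to 27.1 CPM (median 20.9) in ACR and 19.5 to 25.5 CPM (22.3) in WT. KO replicates 3 and 5 were near 1 CPM and KO replicate 6 touched the lowest WT value. The log2 fold change was -1.40 ± 0.41 (adjusted p = 0.0234, and 0.0556 with only the KO and WT groups in the fit). Serpinb1l4 (ENSDARG00000096888) had 2.77, 2.56, 1.09, 4.28, 0.977 and 4.90 CPM in KO replicates 1 to 6, 4.04 to 5.74 CPM (median 4.74) in ACR and 3.91 to 6.33 CPM (5.19) in WT. Replicates 3 and 5 were again the lowest of the KO libraries, while replicates 4 and 6 lay within the WT range. Its log2 fold change was -0.88 ± 0.27 (adjusted p = 0.0343), and the call was lost without any 1 of KO replicates 1, 2, 3 and 5 or WT replicates 1, 2, 3 and 5, with adjusted p between 0.0520 and 0.0712, and with only the KO and WT groups in the fit (0.0686).

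Among the secreted clade A serpins, serpina7 showed the largest fold change of all members. Serpina7 (ENSDARG00000087143), whose human counterpart is thyroxine-binding globulin, had 11.4, 10.3, 16.1, 6.75, 20.6 and 11.6 CPM in KO replicates 1 to 6, against 1.18, 3.96, 0.196, 5.08, 0.0968 and 7.16 CPM in ACR replicates 1 to 6 and 0.741, 3.09, 0, 5.08, 0.148 and 5.38 CPM in WT replicates 1 to 6. All KO libraries lay above all WT libraries, and in the akr1a1a+/+ larvae the level depended on the replicate number, with replicates 3 and 5 at or near the detection limit with and without ACR. The log2 fold change of KO over WT was 2.41 ± 0.67, or 5.32-fold (adjusted p = 0.0174), and it did not pass in the DESeq2 Wald test (adjusted p = 0.0771). Serpina1 (ENSDARG00000090286), an inhibitor of neutrophil elastase, had 211 to 325 CPM (median 281) in KO, 191 to 252 CPM (208) in ACR and 181 to 273 CPM (210) in WT. The groups overlapped, with 4 KO libraries above every WT library, and the log2 fold change was 0.36 ± 0.10 (adjusted p = 0.0176). In TPM the difference was 0.20 on the log2(TPM + 1) scale and did not pass (limma, adjusted p = 0.228). Its neighbour in level, serpina1l, had 295 to 413 CPM (median 322) in KO and 258 to 419 CPM (344) in WT, a log2 fold change of -0.02 ± 0.12 (adjusted p = 0.938).

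The remaining calls lay outside both cascades. SERPINH1 (ENSDARG00000075954), a chaperone of collagen, had 40.3 to 50.4 CPM (median 47.8) in KO, 34.6 to 43.5 CPM (41.9) in ACR and 32.8 to 40.6 CPM (38.2) in WT. The ranges of KO and WT touched at their edges, and the log2 fold change was 0.31 ± 0.07 (adjusted p = 0.00715). The more abundant copy SERPINH1 ENSDARG00000019949 is named here after its values were seen. It averaged 72.5 ± 25.2 CPM in KO and 67.4 ± 20.3 CPM in WT, with overlapping ranges. Its log2 fold change of 0.1 ± 0.23 did not pass (adjusted p = 0.814), so the call holds for ENSDARG00000075954 only. The 17 C1q-domain relatives, most of them C1q/TNF-related or C1q-like proteins outside complement, had log2 fold changes from -0.32 to 1.00, and only c1qtnf6b (ENSDARG00000006544), a secreted C1q/TNF-related protein, passed. It had 2.67 to 3.25 CPM (median 2.94) in KO, 0.542 to 2.17 CPM (1.45) in ACR and 1.07 to 1.98 CPM (1.41) in WT, so that all KO libraries lay above all others, and its log2 fold change was 1.00 ± 0.23 (adjusted p = 0.00512). C1QBP (ENSDARG00000039887), a mitochondrial protein named for its binding of C1q, had 75.5 to 83.4 CPM (median 78.2) in KO, 66.7 to 77.8 CPM (69.5) in ACR and 61.3 to 73.7 CPM (65.9) in WT. KO lay above WT without overlap, and the log2 fold change was 0.25 ± 0.05 (adjusted p = 0.00190).

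**Figure D3:**
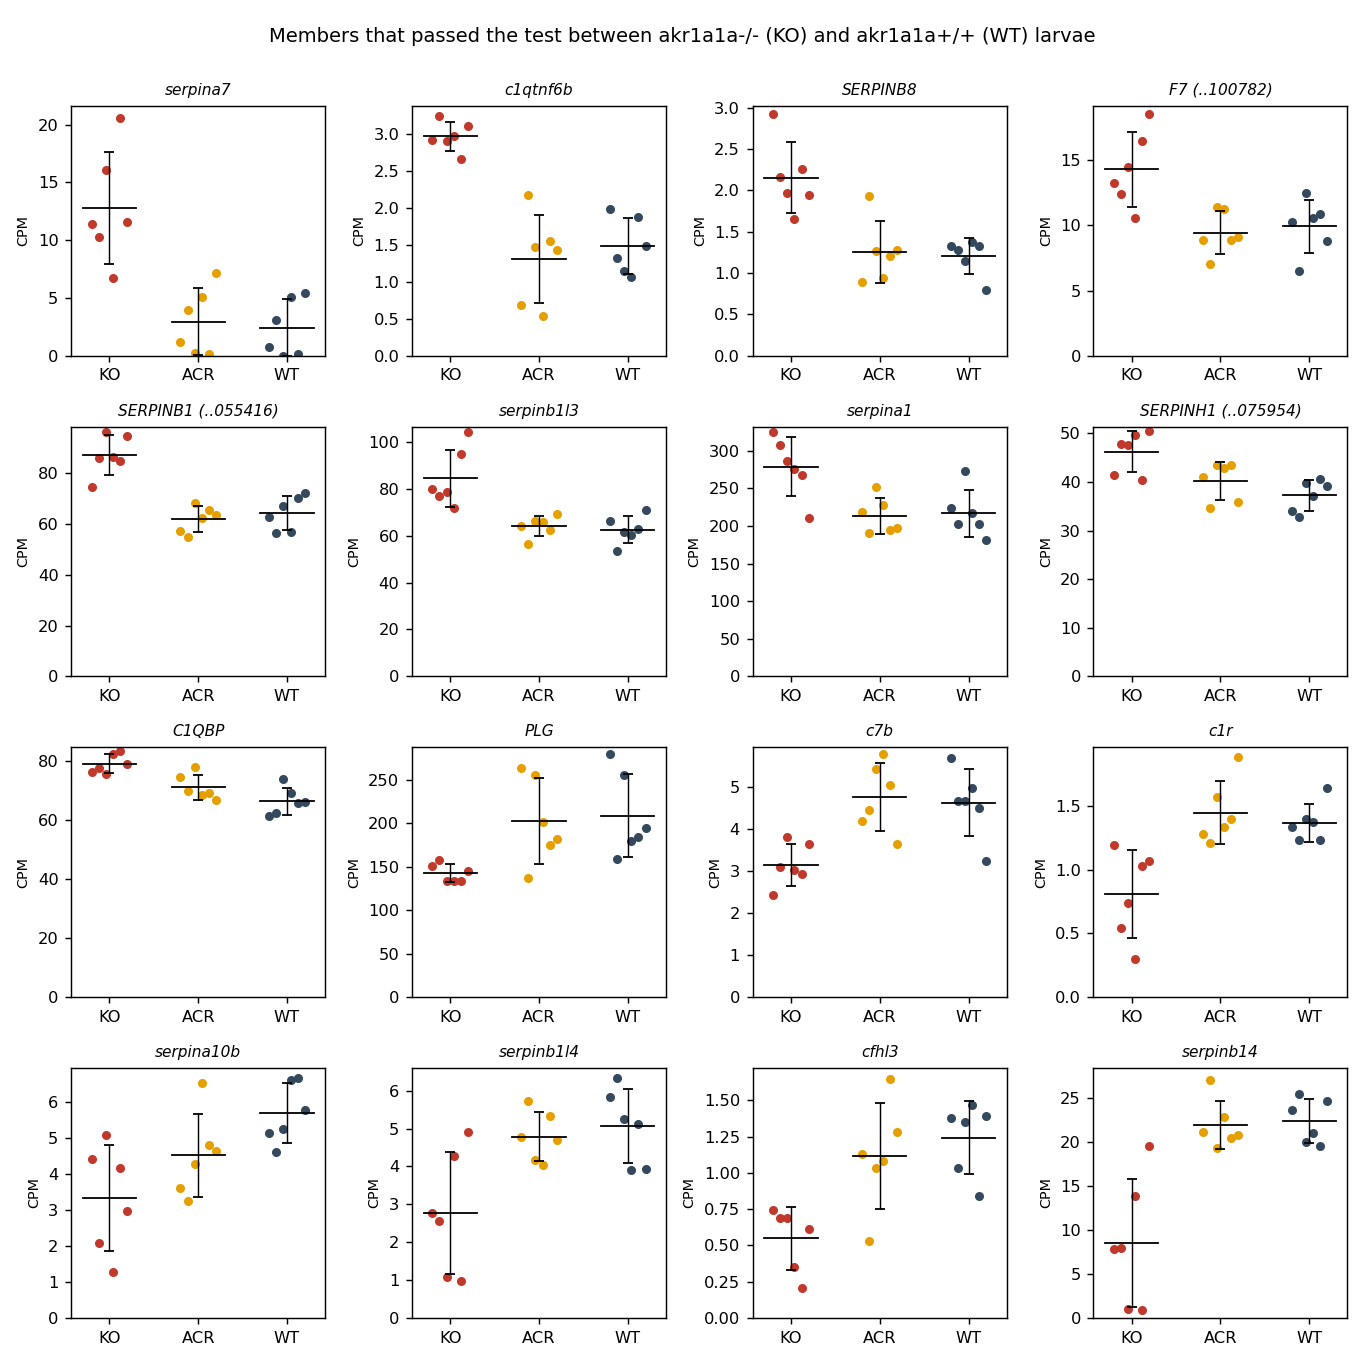
CPM of the 16 members that passed the test between akr1a1a-/- (KO) and untreated akr1a1a+/+ (WT) larvae, with the ACR-treated akr1a1a+/+ group (ACR) between them. Each point is a library, the line is the mean and the bar the SD (n = 6). Panels run from genes higher in KO (serpina7 first) to genes lower in KO, and serpinb14 shows the spread of the KO clutches from 0.926 to 19.5 CPM.

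Since lane and genotype coincided, the calls were examined in fits that could bear on lane. Within ACR, however, lane 2 held replicates 1 to 3 and lane 3 held replicates 4 to 6, and same-numbered ACR and WT libraries deviated together. Lane and replicate number therefore cannot be told apart in these fits. With lane as a covariate, which is informed by the ACR libraries alone, 4 members passed between KO and WT, or 4.35%, against 6.45% of all genes. All 16 members kept their sign, and C1QBP (0.37, adjusted p = 0.0129) and cfhl3 (-1.74, adjusted p = 0.0239) passed again. The other pair were the copies SERPINB1 ENSDARG00000070396 (-3.22, adjusted p = 0.00347), which is named here after its values were seen, and F7 ENSDARG00000075827 (-0.89, adjusted p = 0.0260). This SERPINB1 copy had 0.463 to 0.957 CPM (median 0.690) in KO, 0.44 to 3.44 CPM (1.58) in ACR and 0.883 to 3.19 CPM (1.70) in WT, and without the covariate its log2 fold change was -1.32 ± 0.45 (adjusted p = 0.0520). In WT replicates 1 to 6, all of lane 2, it had 2.12, 0.883, 0.901, 1.27, 2.47 and 3.19 CPM. When the KO libraries were set against the 3 ACR libraries of the same lane, all 16 kept their sign and 8 passed. These were c1qtnf6b, serpinb1l3, C1QBP, SERPINB1 ENSDARG00000055416, c7b, serpina1, SERPINB8 and cfhl3. Of all genes 8.67% passed there, but those were not chosen by an earlier call, so that share is no measure for the 16. The KO libraries are the ones by which the 16 had been called, so neither count is independent of those calls. PLG had a log2 fold change of -0.38 there (adjusted p = 0.0925) and of -0.32 with lane as a covariate (adjusted p = 0.451). Serpina7 had 1.64 there (adjusted p = 0.196) and 1.21 with the covariate (adjusted p = 0.573), against 2.41 without it.

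Between ACR-treated and untreated akr1a1a+/+ larvae, none of the 92 members passed (edgeR, 0 calls, with 0.0258% of all genes called), and 2 were at an unadjusted p under 0.05, c3a.2 and c1qtnf13, against 5.42% of all genes. DESeq2 also called 0 members (0.0862% of all genes), as did limma on log2(TPM + 1) (0.00861%), the fit with lane as a covariate (0.0861%) and the fits with ACR libraries of lane 2 (0.055%) or lane 3 (0.0%) alone. In no member were the groups free of overlap, against 0.306% of all genes, and log2 fold changes ran from -0.34 to 0.39. Same-numbered ACR and WT libraries deviated together, so that the fit with the replicate number as a block is the paired comparison. With the block and only these 12 libraries, 2 members passed and both were higher with ACR, c3a.2 and c4b, or 2.17% of members against 0.599% of all genes. With the block over all 18 libraries 0 members passed, against 0.138% of all genes.

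C3a.2 (ENSDARG00000087359), a copy of the central component, had 65.4, 51.2, 35.1, 38.4, 48.8 and 41.8 CPM in ACR replicates 1 to 6 and 45.4, 41.3, 29.4, 33.0, 34.5 and 30.1 CPM in WT replicates 1 to 6. The ranges overlapped, but the ACR library was the higher of each of the 6 pairs. The log2 fold change was 0.39 without the block (adjusted p = 0.909) and 0.38 ± 0.05 with it (adjusted p = 0.00200). The other tested C3 genes did not pass in either fit. Without the block their log2 fold changes were 0.03 (c3a.1), 0.04 (c3a.3), -0.07 (c3a.6), -0.12 (c3b.1) and -0.25 (c3b.2). Summed over the 8 C3 genes, the level was 131 ± 4.52 TPM in ACR and 128 ± 5.43 TPM in WT. C4b (ENSDARG00000038424), the component from which the classical and lectin routes build their C3-cleaving enzyme, had 23.6, 19.6, 10.8, 11.9, 17.6 and 12.2 CPM in ACR replicates 1 to 6 and 15.4, 17.2, 9.61, 9.75, 13.4 and 9.51 CPM in WT replicates 1 to 6. In CPM the treated library was again the higher in 6 of 6 pairs, with a log2 fold change of 0.34 ± 0.06 in the paired fit (adjusted p = 0.0277). In TPM it was the lower in replicates 4 (4.78 in ACR, 4.93 in WT) and 6 (5.5 in ACR, 5.9 in WT). The related c4, named here after its values were seen, was higher with ACR in 4 of 6 pairs in CPM. Its log2 fold change was 0.20 without the block, and it did not pass in either fit. FGG was higher with ACR in all 6 pairs in both CPM and TPM, at a log2 fold change of 0.12. This order held for fga (0.13) except in replicate 6, at 162 CPM in both groups and at 98.4 TPM in ACR and 99.5 TPM in WT. Neither gene passed in either fit. In the opposite direction, the ACR library was the lower of all 6 pairs in CPM for c1qtnf13 (-0.31), serpina10b (-0.33), C1QTNF4 (-0.05) and C1QL4 ENSDARG00000055317 (-0.15). None of these genes passed in either fit. In TPM the order was reversed for C1QTNF4 in replicates 3 (31.9 in ACR, 29.6 in WT) and 4 (36.5 in ACR, 34.6 in WT). It was also reversed for C1QL4 in replicate 3 (3.25 in ACR, 3.22 in WT). C1QTNF4 and C1QL4 are named here after their values were seen. The share of all genes with all 6 pairs in 1 direction was not counted, so these pair counts have no background. In KO libraries c3a.2 had 25.8 to 60.1 CPM (median 47.9), and its log2 fold change of KO over WT was 0.43 ± 0.18 (adjusted p = 0.107, and 0.0153 without KO replicate 5).

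KO and ACR larvae were compared directly, which also tests whether the difference of KO from WT and that of ACR from WT are unequal. Of the 92 members 20 passed, 11 higher and 9 lower in KO, or 21.7%, against 13.8% of all genes (6.46% higher and 7.29% lower). On the log2(TPM + 1) scale limma called 6 higher and 13 lower, against 15% of all genes, whose shares by direction were not counted. The groups did not overlap for 6 members, or 6.52%, against 6.13% of all genes, with 4 members above (2.8% of all genes) and 2 below (3.33%). Of the 16 members that passed between KO and WT, 13 passed here too. Both comparisons use the same KO libraries, so this overlap is not independent of those calls. Of the 13, C1QBP (edgeR, adjusted p = 0.0485), PLG, serpina7, serpinb14 and cfhl3 lost the call here when some single libraries were left out. The number of all members that passed between KO and ACR was 13 without KO replicate 5 and 11 with lane as a covariate (8.53% of all genes). It was 9 against the ACR libraries of the same lane (8.67% of all genes).

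Between KO and ACR, 7 members passed that had not passed between KO and WT, and 4 of them were lower in KO. Factor V, f5, the cofactor of factor Xa, had 35.8 to 61.5 CPM (median 49.2) in KO, 51.8 to 75.4 CPM (62.8) in ACR and 51.0 to 72.4 CPM (54.3) in WT, and its log2 fold change of KO over ACR was -0.41 ± 0.12 (adjusted p = 0.0240). FGG had 72.6 to 122 CPM (median 94.6) in KO, 96.5 to 152 CPM (121) in ACR and 92.8 to 134 CPM (110) in WT, a log2 fold change of -0.38 ± 0.12 (adjusted p = 0.0390). KO and ACR overlapped for both genes. Factor B, cfb, had 58.5 to 88.7 CPM (median 66.6) in KO and 74.9 to 100 CPM (84.5) in ACR, a log2 fold change of -0.31 ± 0.09 (adjusted p = 0.0310). The factor H-like cfhl2 had 12.6 to 28.4 CPM (median 18.5) in KO and 24.4 to 27.8 CPM (26.0) in ACR, a log2 fold change of -0.41 ± 0.13 (adjusted p = 0.0414). The other 3, c1s.1, SERPINE3 and c3b.1, were higher in KO, at 0.49 ± 0.13, 0.58 ± 0.17 and 0.28 ± 0.09 (adjusted p = 0.0171, 0.0287 and 0.0360). None of these 7 passed against the ACR libraries of the same lane. The call for c1s.1 held without any single library and was lost on the log2(TPM + 1) scale. The other 6 lost their calls without some single libraries, with adjusted p up to 0.0585 for f5 (ACR replicate 1, also KO replicates 5 and 6), 0.0929 for FGG (ACR replicate 1, also ACR 3 and 5 and KO 3 to 6), 0.0741 for cfb (ACR replicate 1, also ACR 2 and 5 and KO 1, 5 and 6), 0.0899 for cfhl2 (KO replicate 4, also every other library except KO 2 and 3), 0.0790 for SERPINE3 (KO replicate 5, also KO 2 and 6 and ACR 4) and 0.0853 for c3b.1 (KO replicate 2, also KO 4 to 6 and ACR 2, 3 and 5).

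The members varied more between replicates than genes at large. The median SD of log2 CPM within a group was 0.218 over the 92 members and 0.164 over all genes tested. Among the most variable were serpina7, with SDs of 0.549 in KO, 2.22 in ACR and 2.43 in WT, and serpinb14, with SDs of 1.85 in KO, 0.172 in ACR and 0.162 in WT. In akr1a1a+/+ larvae much of this variation was shared by number. The deviations of ACR and WT libraries of the same number from their group means correlated across the 92 members with a mean r of 0.736 (0.509 to 0.841 over the 6 pairs), against -0.146 for unlike numbers, and across all genes the mean r was 0.445. These are correlations across genes, which are not independent. Genes with a large SD, above all serpina7, weigh most in the r of the members, and r without serpina7 was not computed. For KO and WT libraries the same-number r averaged -0.015 over the members. PLG shows the pattern at a high level, with 264, 137, 256, 202, 175 and 182 CPM in ACR replicates 1 to 6 and 280, 159, 256, 180, 184 and 194 CPM in WT replicates 1 to 6. Replicates 1 and 3 were high and replicate 2 was low in both.

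**Figure D4:**
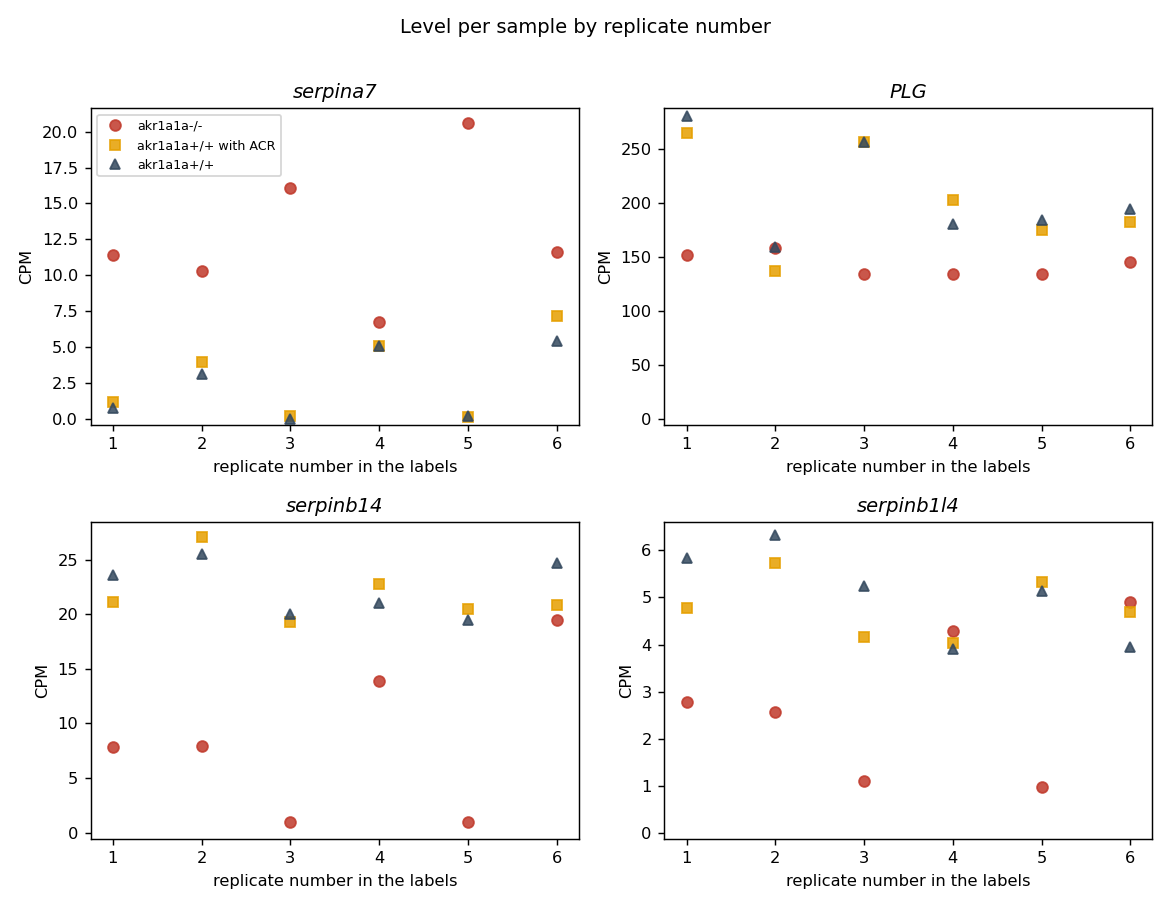
CPM of serpina7, PLG, serpinb14 and serpinb1l4 by the replicate number in the labels, with circles for akr1a1a-/-, squares for ACR-treated akr1a1a+/+ and triangles for untreated akr1a1a+/+ larvae. Squares and triangles of 1 number lie close together for serpina7 and PLG, and KO replicates 3 and 5 are the lowest KO libraries for serpinb14 and serpinb1l4.

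Genes of both cascades that the symbol rule leaves out were counted from separate lists. Of 8 further complement genes 1 was higher in KO than in WT, the vitronectin gene VTN ENSDARG00000053831 (0.22, adjusted p = 0.0406), which is also among the hepatocyte markers. Of 27 tested further coagulation and fibrinolysis genes 1 was higher, TFPI2, an inhibitor of the tissue factor pathway (0.41, adjusted p = 0.0181), and 2 were lower: proza, a copy of protein Z, the cofactor of the serpina10 inhibitor (-0.36, adjusted p = 0.00228), and FGL2, a fibrinogen-like protein (-0.55, adjusted p = 0.0103). Of 20 tested acute phase and inflammation genes 1 was higher and 2 were lower. The called shares of these lists were 12.5%, 11.1% and 15%, against 16.2% of all genes, so none exceeded that of all genes. None of these lists held a call between ACR and WT.

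Marker lists of the cells that could contribute gave the following beside the members. Of 15 tested macrophage markers 0 were higher and 4 lower in KO than in WT, and their summed TPM was 51.6 to 66.7 (median 57.2) in KO, 65.4 to 102 (82.5) in ACR and 61.2 to 83.4 (71.0) in WT. Their median log2 fold change was only -0.058, with 5 of 15 positive and the lowest at -2.85. For neutrophil markers, 2 were higher and 1 lower of 11 and the summed TPM was 90.8 to 108 in KO and 96.9 to 118 in WT, and for thrombocyte markers 2 were higher and 1 lower of 12, at 166 to 192 TPM in KO and 182 to 219 TPM in WT. Most single markers of both lists went the other way from the sums. The median log2 fold change was 0.204 for neutrophil markers (7 of 11 positive) and 0.23 for thrombocyte markers (9 of 12 positive). Endothelial markers summed to 88.7 to 115 TPM (mean 99.0) in KO and 128 to 163 TPM (143) in WT, with 2 of 10 lower. The difference in this sum lay mostly in 1 of these, FLI1 (51.1 TPM in KO and 92.1 TPM in WT). The median log2 fold change of the 10 endothelial markers was 0.038, and 6 of them were positive. Skin markers had 0 calls of 12, intestine markers 3 higher and 1 lower of 11, and skeletal tissue markers 2 higher of 13. Over all genes 8.19% were higher and 7.96% lower. The called share was 26.7% of macrophage, 27.3% of neutrophil, 25% of thrombocyte, 20% of endothelial, 36.4% of intestine and 15.4% of skeletal markers, each from at most 4 genes, against 16.2% of all genes. No marker of these lists was at 0 in all libraries, and their part in the members' differences was not tested.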

How the data were processed

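RNA-Seq libraries of 18 pools of zebrafish larvae were analyzed. The authors deposited estimated counts per gene, not normalized, and TPM values, which they scaled within each sample for transcript length. The submitters' processing notes name Trim Galore 0.6.4, kallisto 0.4.6 and the genome build GRCz11. Estimated counts were rounded. Symbols came from a table of gene IDs, and 29201 of 32520 IDs had one. Many symbols are in the human form there. Antisense partners cannot be told apart, since no strand setting is given in the sources used here.

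R 4.3.3, edgeR 4.0.16, limma 3.58.1 and DESeq2 1.42.0 were used. The main test was edgeR's quasi-likelihood test with TMM scaling and filterByExpr, fitted on all 18 samples with KO, ACR and WT as levels of 1 factor, 15 residual degrees of freedom and Benjamini-Hochberg adjustment over 23223 genes at a threshold of 0.05. This fit takes same-numbered ACR and WT libraries as independent although they deviated together, so 15 residual degrees of freedom may be too many. CPM values use TMM-scaled totals. Standard errors are approximate, from the fold change and F. The code was tested on simulated counts.

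Members and lists were chosen with earlier results of these data known. Genes named were those past the threshold in any comparison with a mean log2 CPM of at least 0, the 5 largest fold changes in KO or ACR against WT with a mean log2 CPM of at least 1, the 10 highest in TPM, and all members of the roles C3, fibrinogen, coagulation factor, anticoagulant serpin, fibrinolysis, terminal pathway and receptor. A gene that this rule names is not reported here. Lists covered hepatocyte, macrophage, neutrophil, thrombocyte, endothelial, skin, intestine and skeletal markers, acute phase genes and further genes of both cascades.

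Same-numbered ACR and WT libraries deviated together over all genes (mean r 0.445, 0.249 to 0.603, and every library matched its own number best), so these numbers were taken as pairs. Same-numbered KO and WT libraries did not (mean r 0.076, lowest 0.039). Alternatives were DESeq2 size factors, no filter, at least 10 counts in every sample, the DESeq2 Wald test, limma on log2(TPM + 1) and log2(TPM + 0.1), only the groups compared, a replicate block, lane as a covariate, ACR libraries of 1 lane, and leaving out each library.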

Additional observations from a re-analysis of the deposited data

Results flagged for a closer look

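In 5 of 170 groups of 6 libraries looked at for the named genes, 1 library stood apart from the other 5 by Dixon's criterion, which chance meets in about 1 in 20 groups. WT replicate 1 was high for f5 (72.4 CPM, others 51.0 to 57.3 CPM) and for serpinf2a (41.6 CPM, others 30.9 to 33.0 CPM). KO replicate 2 was high for serpina1l (413 CPM, others 295 to 338 CPM). ACR replicate 2 was low for c3b.2 (17.8 CPM, others 27.0 to 29.6 CPM) and high for c7a (14.6 CPM, others 7.07 to 9.47 CPM).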

How the results depend on the processing

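The number of members past the threshold between KO and WT was 16 and moved to 4 with lane as a covariate, which no library of these groups informs directly. Leaving out single libraries gave 14 to 17. Between ACR and WT it was 0 in each leave-one-out fit, and 2 with the replicate block and only the groups compared. Between KO and ACR it was 20, with 11 under the lane covariate, 9 with the ACR libraries of lane 3 only and 13 to 20 when single libraries were left out. The replicate block over all samples gave 23 members between KO and WT (20.8% of all genes), 0 between ACR and WT and 25 between KO and ACR (18.2%), and with only the groups compared 19, 2 and 15. KO and WT numbers mark no pairing, so these counts describe the fit only, and 1 of 6 KO libraries matched the WT library of its own number best. The cause of the changes with lane was not tested, and within ACR lane and replicate number coincided.

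Of 349 alternative values for the 16 genes called between KO and WT, 309 stayed past the threshold and 40 did not, with 0 changes of sign. For KO against ACR, 349 of 457 values of the 20 called genes stayed past it and 108 did not. Of 1340 values for 56 uncalled genes between ACR and WT, 2 passed the threshold and 107 changed sign. C1r and cfhl3 rest on 4 to 38 counts per library, and serpina7 had 0 counts in the lowest WT library. These genes were not tested when at least 10 counts in every sample were required.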
